A study of Mus musculus with 30 samples.

Results

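The genes described here encode the enzymes that make ceramide and turn over sphingomyelin. They are Sptlc1 and Sptlc2 (subunits of serine palmitoyltransferase), Degs1 (dihydroceramide desaturase), the ceramide synthases Cers2, Cers4, Cers5 and Cers6, Sgms1 (sphingomyelin synthase), Smpd1 (acid sphingomyelinase) and Asah1 (acid ceramidase). Members were taken by symbol, and each of the 10 symbols had 1 probe set among the 22206 non-control probe sets of the array. Expression was measured in the liver of adult C57/BL6J mice at 16 weeks of age with Clariom S arrays, 1 array per animal and 30 in all. The groups were named for the diet of the males: LL offspring (5 females, 4 males) came from sperm and seminal plasma of males on a low protein diet (LPD), NL offspring (3 females, 4 males) from normal protein diet (NPD) sperm with LPD seminal plasma, LN offspring (3 females, 4 males) from LPD sperm with NPD seminal plasma, and NN offspring (3 females, 4 males) from NPD sperm and NPD seminal plasma. In every group the sperm was given by artificial insemination to superovulated C57BL/6 females and the seminal plasma by mating with a vasectomised male, so all offspring, NN included, were conceived in this way. According to the methods each pair of animals came from its own litter, so that arrays of opposite sex within a group could be from siblings, but the labels do not tie arrays to litters or sires. The arrays were therefore treated as independent, in the comparison of the sexes too, and p-values measure only the spread between them.

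Ceramide is made on the endoplasmic reticulum. Serine palmitoyltransferase joins serine to a fatty acyl-CoA in the committed step, a ceramide synthase adds an N-linked fatty acid, and the desaturase gives ceramide. Each ceramide synthase prefers certain acyl lengths: Cers2, the main one of hepatocytes, uses very long chains, whereas Cers5 and Cers6 favour palmitoyl-CoA and Cers4 uses long to very long chains. In the Golgi, sphingomyelin synthase transfers phosphocholine from phosphatidylcholine to ceramide. In lysosomes acid sphingomyelinase turns sphingomyelin back to ceramide, and acid ceramidase splits ceramide to sphingosine and a fatty acid. In the liver these lipids are membrane and lipoprotein components, and raised ceramide is known for impairing insulin signalling.

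One array stood apart in its signal. In NL replicate 6, a male, the hybridisation controls averaged 7.61 on the log2 scale, against 10.14 to 10.95 on the other 29 arrays, the GC background probes averaged 5.13, against 3.87 to 4.25, and the mean over the 10 members was 5.88, against 7.41 to 8.02. Every comparison was therefore made with all 30 arrays and again without NL replicate 6. Y-linked probe sets averaged 6.40 to 7.36 in the other 15 males and 2.38 to 3.00 in 13 females. They averaged 5.22 in the array labelled LL replicate 1, a female, and 3.06 in NL replicate 6. The averaged sex differences of Cers6, Sgms1, Asah1, Arsa, Ugcg and St3gal5 are therefore also given without both. Sex differences of other genes, and those within LL offspring, keep LL replicate 1 as a female. The 6 hepatocyte markers, among them Alb and Apoa1, had a list mean of 12.99 to 13.19 on all arrays other than NL replicate 6.

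Cers6 was lower in males than in females when averaged over the diet groups, and the arrays of the sexes did not overlap within any of them. In LL offspring the log2 level of Cers6 was 7.16, 7.18, 7.00 and 7.01 in males, against 8.06, 8.43, 8.04, 7.87 and 8.08 in females. In NL offspring it was 8.06, 6.57, 4.74 (NL replicate 6) and 7.33 in males, against 8.16, 8.15 and 8.19 in females. The male and female arrays did not overlap in these 2 groups. In LN offspring Cers6 was 7.02, 7.48, 6.28 and 6.93 in males, against 8.64, 8.44 and 8.09 in females. In NN offspring it was 7.94, 7.33, 6.59 and 7.28 in males, against 8.05, 8.08 and 8.84 in females. Every male lay below every female of its own diet group, with gaps as small as 0.09 in NL offspring and 0.11 in NN offspring, and without NL replicate 6 a separation with males lower was found for 2.08% of all probe sets in LL, 7.25% in NL, 6.17% in LN and 4.18% in NN offspring. Across groups, 13 of 15 males lay below the lowest of the 14 females.

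Averaged over the 4 diet groups, Cers6 was 1.25 lower in males on the log2 scale (SE 0.21, 95% interval -1.68 to -0.82, 2.38-fold, adjusted p = 0.000307 by limma with Benjamini-Hochberg adjustment over all probe sets). Without NL replicate 6 the group means averaged 7.16 in males and 8.24 in females, a difference of -1.09 (SE 0.14, interval -1.38 to -0.80, 2.13-fold, adjusted p = 3.46e-06). Without LL replicate 1 as well, the difference was again -1.09 (adjusted p = 6.08e-06). Within single diet groups and without NL replicate 6, the difference was -1.01 in LL (adjusted p = 0.0349), -0.84 in NL (adjusted p = 0.362), -1.46 in LN (adjusted p = 0.00422) and -1.04 in NN offspring (adjusted p = 0.0873). With all 30 arrays no diet group passed on its own, and the adjusted p was 0.643, 0.148, 0.247 and 0.842 in the same order. Whether the sex difference itself differed between LL, NL or LN and NN offspring was tested, and no member passed after adjustment.

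**Figure D1:**
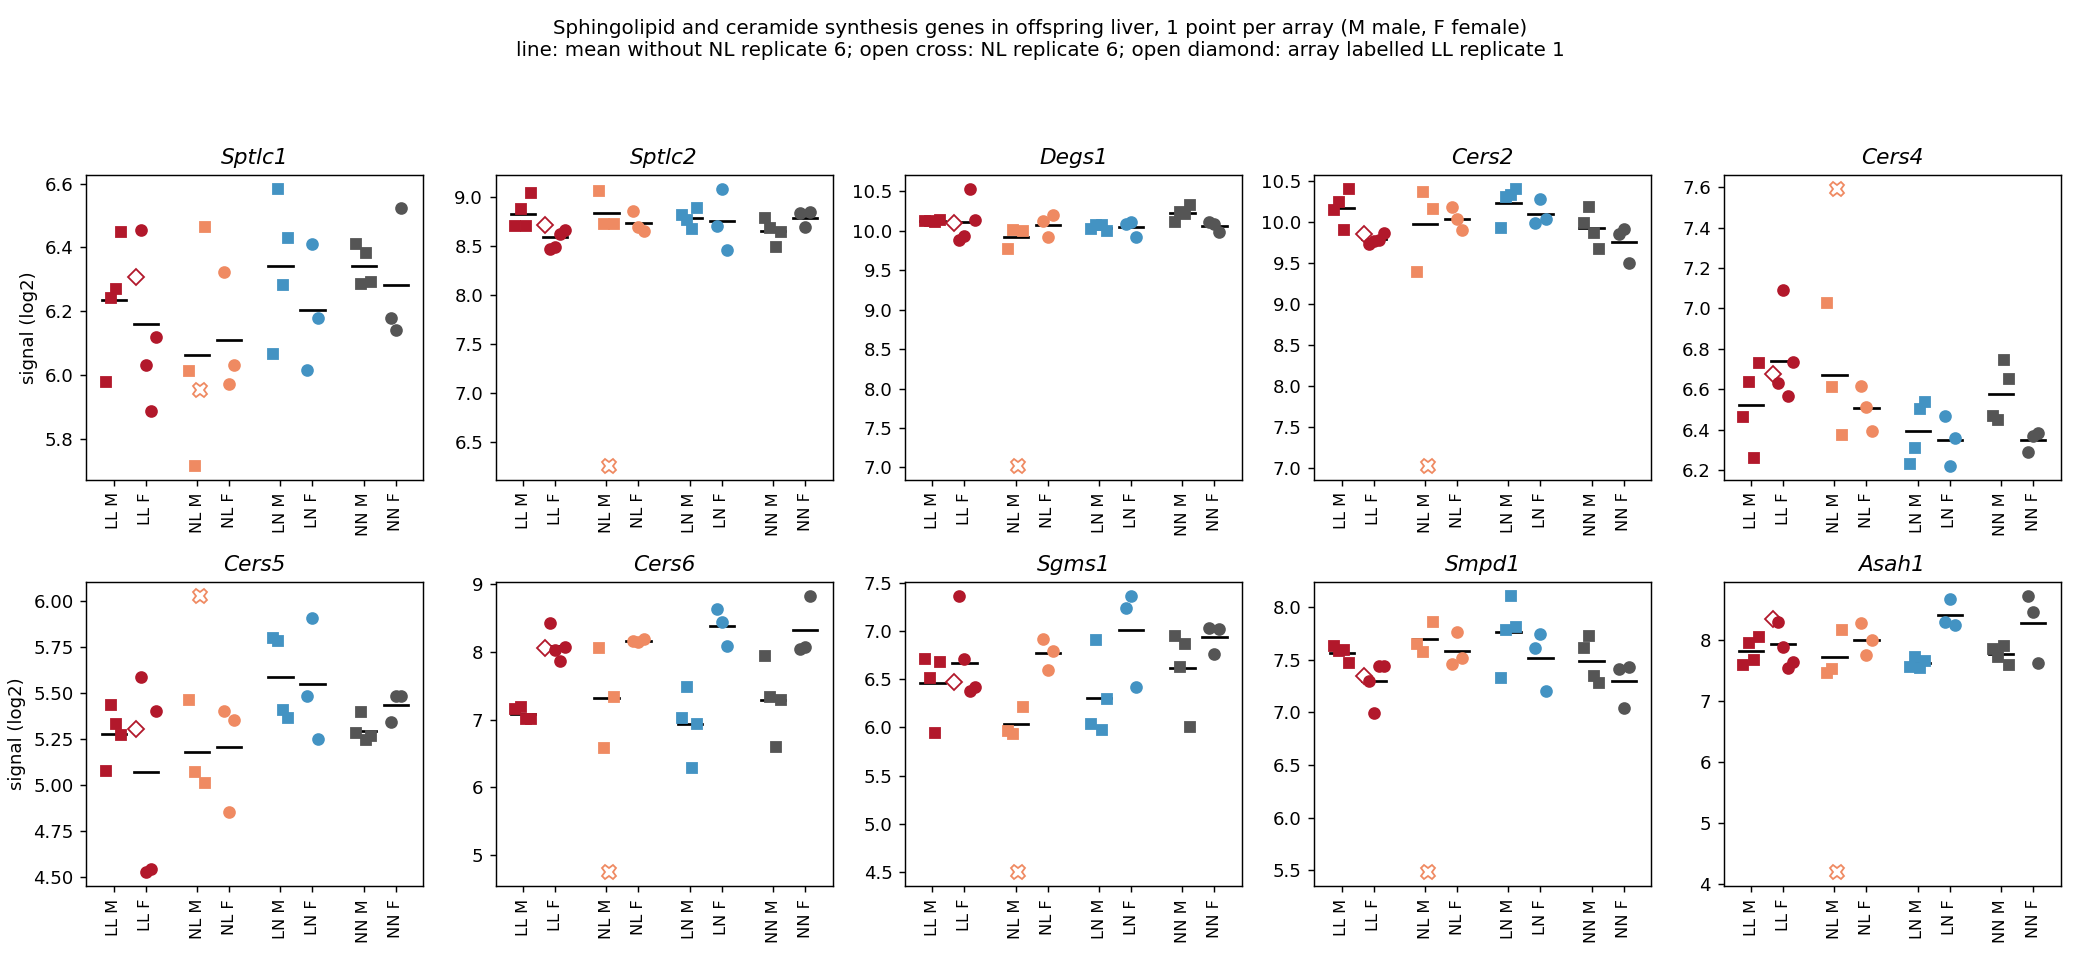
Log2 level of each of the 10 genes on every array, by diet group (LL, NL, LN, NN) and by sex (male left of female), with the mean of each group and sex without NL replicate 6 as a line. Each panel has its own vertical range, and NL replicate 6 and the array labelled LL replicate 1 are drawn as an open cross and an open diamond. NL replicate 6 lies far below the other NL arrays for 7 genes, and Cers6 is lower in males in every diet group.

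Sgms1, which makes sphingomyelin in the Golgi, was also lower in males. Over all diet groups the lowest, median and highest log2 levels of Sgms1 were 5.93, 6.30 and 6.95 in the 15 males other than NL replicate 6, against 6.38, 6.78 and 7.37 in the 14 females, and 8 males lay below the lowest female. The ranges overlapped. In NL offspring Sgms1 was 5.96, 5.93, 4.49 (NL replicate 6) and 6.21 in males, against 6.92, 6.59 and 6.80 in females, without overlap. Without NL replicate 6, 7.25% of all probe sets were apart in that direction. In NN offspring it was 6.95, 6.63, 6.87 and 6.00 in males, against 7.04, 6.76 and 7.02 in females and 1 male lay clearly below the rest. The averaged difference was -0.59 with all arrays (SE 0.16, adjusted p = 0.0395, which rose to as much as 0.0998 and passed the threshold no longer when any of 15 single arrays was left out) and -0.49 without NL replicate 6 (SE 0.13, interval -0.76 to -0.23, 1.41-fold, adjusted p = 0.0168). Without LL replicate 1 as well it was -0.51 (adjusted p = 0.0167). By diet group it was -0.21 in LL, -0.73 in NL, -0.71 in LN and -0.33 in NN offspring without NL replicate 6, and none passed alone.

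Asah1, the lysosomal acid ceramidase, passed without NL replicate 6 but not with all arrays weighted equally. Over all diet groups Asah1 was at 7.45, 7.68 and 8.17 (lowest, median and highest) in 15 males, against 7.54, 8.26 and 8.73 in 14 females. All 15 males lay below the female median, but only 3 lay below the lowest female. In LN offspring its log2 level was 7.57, 7.73, 7.53 and 7.66 in males, against 8.30, 8.67 and 8.24 in females. The sexes did not overlap, as for 6.17% of all probe sets in that direction. In LL offspring it was 7.58, 7.96, 7.68 and 8.05 in males, against 8.34, 8.30, 7.88, 7.54 and 7.64 in females, with the sexes intermixed. With all arrays the averaged difference was -0.65 (SE 0.24, unadjusted p = 0.0122, adjusted p = 0.201), or -0.47 when limma weighted the arrays by their quality (adjusted p = 0.00337), and NL replicate 6 held the lowest value, 4.19. Without it the difference was -0.42 (SE 0.11, interval -0.65 to -0.20, 1.34-fold, adjusted p = 0.0163), and without LL replicate 1 as well it was -0.40 (adjusted p = 0.0228). By diet group Asah1 differed by -0.12 in LL, -0.29 in NL, -0.78 in LN and -0.51 in NN offspring, with no adjusted p under the threshold (0.0801 in LN).

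The other 7 genes did not pass. Smpd1, which degrades sphingomyelin in lysosomes, was the only other member with an unadjusted p under 0.05: its log2 level was 7.28, 7.61 and 8.11 (lowest, median and highest) in 15 males, against 6.99, 7.43 and 7.76 in 14 females, a difference of 0.20 without NL replicate 6 (SE 0.08, unadjusted p = 0.0194, adjusted p = 0.168). With all arrays it was 0.07 (adjusted p = 0.883). Cers2, at 0.15 without NL replicate 6 (interval -0.03 to 0.33), was apart in LL offspring only, where it stood at 10.14, 10.24, 9.90 and 10.40 in males, against 9.85, 9.73, 9.76, 9.78 and 9.87 in females (0.38, unadjusted p = 0.0227), a separation with males higher that 3.12% of all probe sets showed. Degs1 differed by 0.00 (interval -0.12 to 0.13), Sptlc2 by 0.06 (interval -0.08 to 0.20) and Sptlc1 by 0.06 (interval -0.11 to 0.23). Cers4 differed by 0.06 (interval -0.10 to 0.21) and Cers5 by 0.02 (interval -0.19 to 0.24). In all, 2 of 10 members passed with all arrays, where 2.51% of all probe sets did, and 3 of 10 without NL replicate 6, where 5.65% did. All were lower in males. The member median was -0.07 with all arrays and 0.04 without NL replicate 6, against 0.02 and 0.01 for all probe sets.

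**Figure D2:**
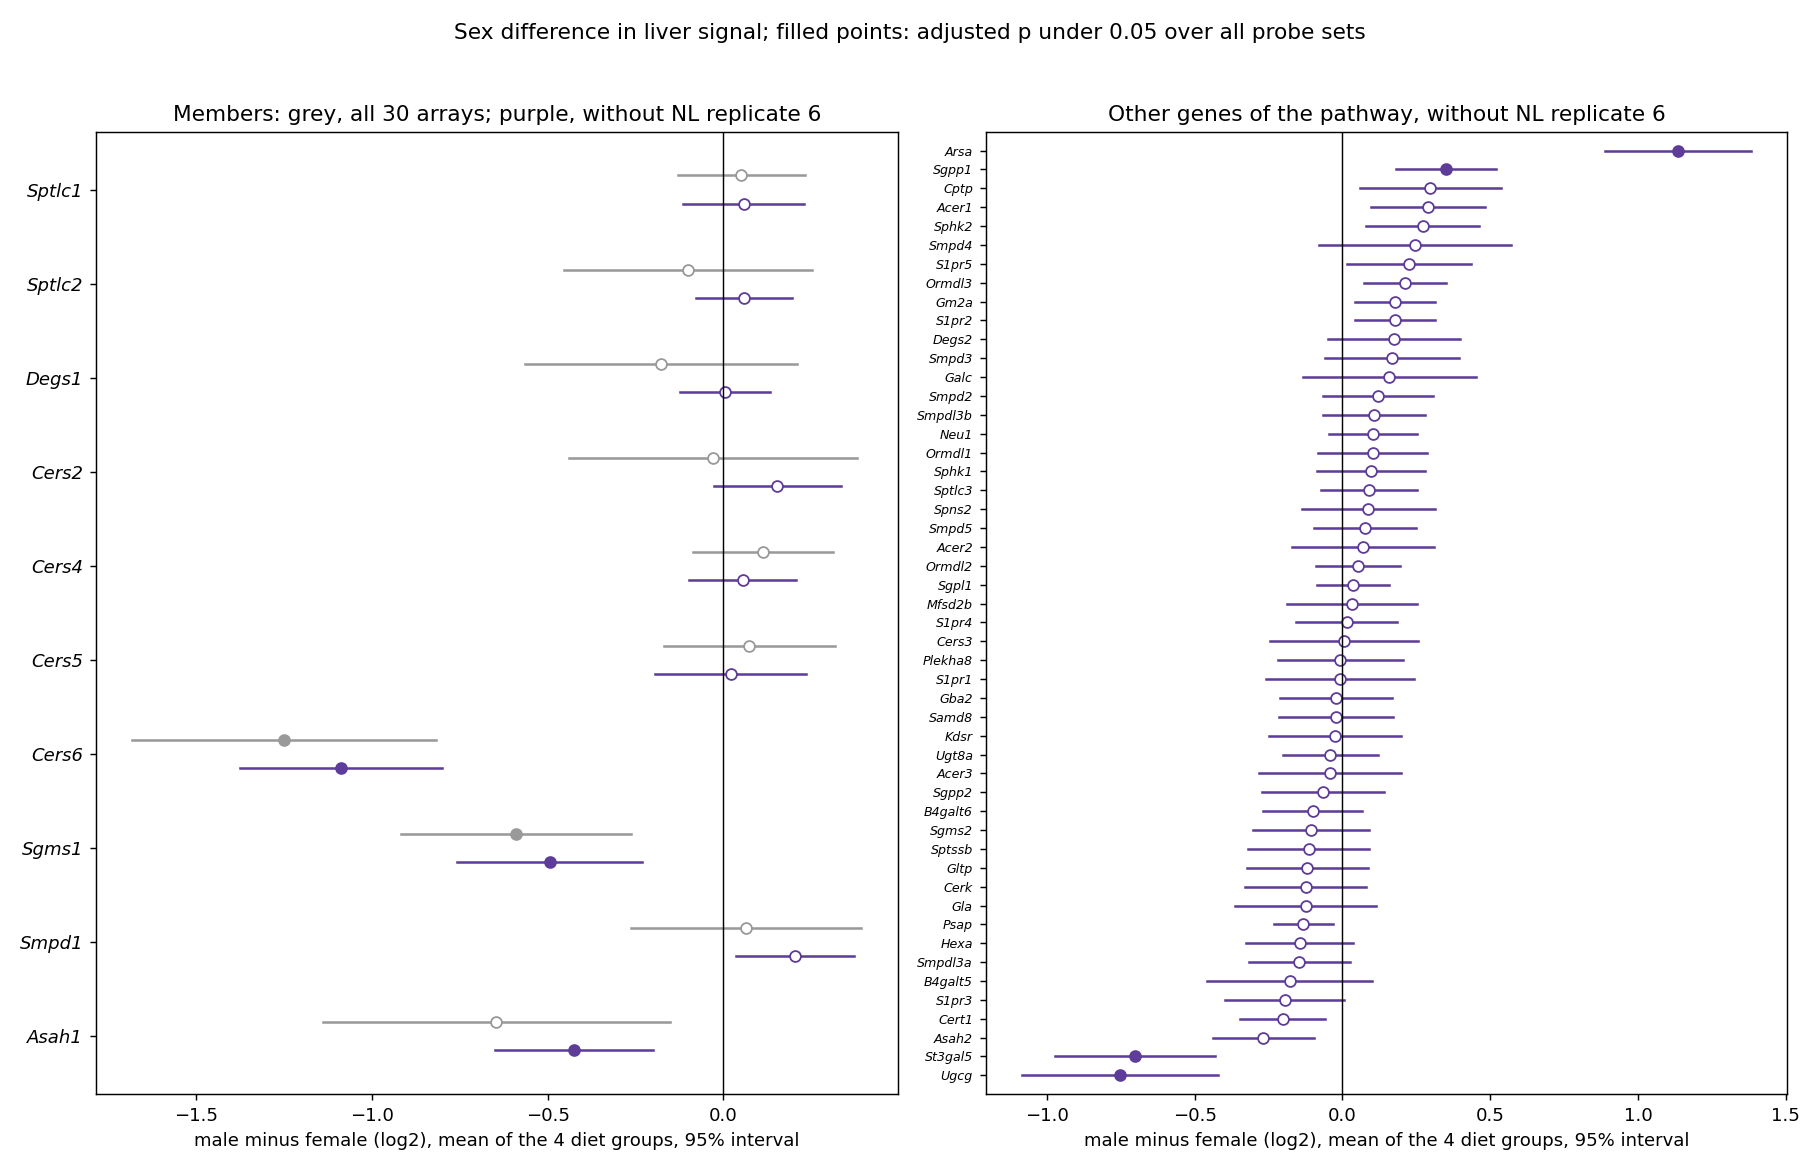
Log2 difference of males minus females, averaged over the diet groups, with 95% intervals, for the 10 genes with all 30 arrays and without NL replicate 6 (left) and for the other 50 genes of the pathway without NL replicate 6 (right), with filled points for an adjusted p under 0.05. Cers6 lies at -1.25 and -1.09 and Sgms1 at -0.59 and -0.49, and Arsa (1.14), St3gal5 (-0.70) and Ugcg (-0.75) lie farthest from 0 on the right.

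Some markers of other liver cell types differed between the sexes as well. Since whole tissue was measured, fewer cells of a type and less RNA per cell cannot be told apart. Without NL replicate 6, 5 of 5 Kupffer cell and macrophage markers were below 0 in males (list mean 7.10 to 7.94 in males and 7.45 to 8.06 in females), with Vsig4 lower by -0.56 (adjusted p = 0.00198). All 4 sinusoidal endothelium markers (7.81 to 8.36 and 7.90 to 8.61) and all 4 stellate cell markers (7.91 to 8.38 and 8.20 to 8.57, males before females) were also below 0, among them Lrat at -0.48 (adjusted p = 0.00123). The list means of these cell types overlapped between the sexes. Of all 22206 probe sets, 11737 were above 0 in the same fit. None of the 6 hepatocyte markers passed, and their list mean was 12.99 to 13.17 in males and 13.04 to 13.19 in females. Other markers were higher in males. Alas2, the erythroid enzyme of heme synthesis and the 1 red blood cell marker of 4 with a probe set, was at 8.31 to 9.58 in males, against 6.44 to 8.01 in females (1.95, adjusted p = 1.24e-11). Of the 4 cholangiocyte markers Sox9 was higher in males (0.76, adjusted p = 0.0133) and the other 3 were below 0 without passing (list mean 4.98 to 6.11 in males and 5.06 to 5.80 in females). No lymphocyte (4.04 to 4.69 in males and 4.24 to 5.01 in females), adipocyte (3.44 to 4.46 and 3.39 to 5.12) or exocrine pancreas marker (4.94 to 8.67 and 4.92 to 5.26, males before females) passed. The pancreas list mean of 8.67 came from 1 NN male. The median of the 4 NN males was 5.16, and no other group of diet and sex exceeded 5.26. This NN array was kept in the main fits. The part of these cell types in the differences of Cers6, Sgms1 and Asah1 was not tested.

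Among other genes of sphingolipid metabolism, 3 of the 16 in the glycosphingolipid list differed between the sexes with and without NL replicate 6. Of 58 listed symbols 50 had a probe set. Without NL replicate 6, 4 of the 50 passed after adjustment, 2 higher and 2 lower in males (5.65% of all probe sets), and 3 with all arrays. Arsa, the lysosomal arylsulfatase that degrades sulfatide, was at 6.64, 7.28 and 7.90 (lowest, median and highest) in males, against 5.81, 6.05 and 6.72 in females, a difference of 1.14 (SE 0.12, 2.20-fold, adjusted p = 8.76e-08). The ranges barely overlapped. Ugcg, which makes glucosylceramide from ceramide, was at 5.11, 5.97 and 6.62 in males, against 5.74, 6.71 and 7.71 in females (-0.75, SE 0.16, adjusted p = 0.00307). St3gal5, which makes the ganglioside GM3, was at 8.51, 8.97 and 9.45 in males, against 8.44, 9.68 and 10.23 in females (-0.70, SE 0.13, adjusted p = 0.00075). These 3 also passed with all arrays (1.07, -0.93 and -0.77 in the same order, adjusted p = 3.35e-06, 0.0223 and 0.00166), and without both NL replicate 6 and LL replicate 1 (1.16, -0.76 and -0.69, adjusted p = 4.97e-08, 0.00413 and 0.00124). Sgpp1, a sphingosine 1-phosphate phosphatase, named here after its values were seen, was higher in males by 0.35 without NL replicate 6 (adjusted p = 0.00791) but not with it (0.18, adjusted p = 0.701). No gene of the 8 for de novo synthesis and its control or of the 9 for sphingomyelin synthesis and breakdown passed.

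The sequences before the transcription start are shown for the 5 genes that passed with and without NL replicate 6, so that the members that differed can be set beside each other. They are the 250 bases upstream of the start in RefSeq on GRCm38.p6, given 5′ to 3′ on the strand of the gene, and for Sgms1, which has 4 starts there, the most upstream one. Capitals mark the CCAAT box, the GC box core GGGCGG, the TATA motif TATAAA, the E-box CACGTG and the STAT core TTCNNNGAA, each on either strand.
Cers6, chr2:68861191-68861440, plus strand: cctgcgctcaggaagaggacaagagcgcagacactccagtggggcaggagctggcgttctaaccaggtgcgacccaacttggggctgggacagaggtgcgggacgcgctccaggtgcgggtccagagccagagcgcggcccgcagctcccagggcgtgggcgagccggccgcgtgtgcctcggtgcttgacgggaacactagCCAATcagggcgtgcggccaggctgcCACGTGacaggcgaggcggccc
Sgms1, chr19:32388513-32388762, minus strand: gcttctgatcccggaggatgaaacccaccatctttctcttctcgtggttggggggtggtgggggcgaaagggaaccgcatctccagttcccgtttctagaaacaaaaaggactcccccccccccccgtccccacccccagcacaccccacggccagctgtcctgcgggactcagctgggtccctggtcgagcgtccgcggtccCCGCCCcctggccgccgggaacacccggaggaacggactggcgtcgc
Ugcg, chr4:59189300-59189549, plus strand: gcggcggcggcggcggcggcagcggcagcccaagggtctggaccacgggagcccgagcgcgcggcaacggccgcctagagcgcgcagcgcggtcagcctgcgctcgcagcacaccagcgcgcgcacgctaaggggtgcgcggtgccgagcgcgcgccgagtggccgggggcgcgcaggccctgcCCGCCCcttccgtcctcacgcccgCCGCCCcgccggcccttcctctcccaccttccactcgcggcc
St3gal5, chr6:72097358-72097607, plus strand: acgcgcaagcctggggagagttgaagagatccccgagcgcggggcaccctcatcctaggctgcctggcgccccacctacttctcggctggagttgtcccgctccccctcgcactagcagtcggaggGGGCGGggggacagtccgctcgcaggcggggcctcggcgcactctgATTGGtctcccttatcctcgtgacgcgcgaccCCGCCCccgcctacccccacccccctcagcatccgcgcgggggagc
Arsa, chr15:89477425-89477674, minus strand: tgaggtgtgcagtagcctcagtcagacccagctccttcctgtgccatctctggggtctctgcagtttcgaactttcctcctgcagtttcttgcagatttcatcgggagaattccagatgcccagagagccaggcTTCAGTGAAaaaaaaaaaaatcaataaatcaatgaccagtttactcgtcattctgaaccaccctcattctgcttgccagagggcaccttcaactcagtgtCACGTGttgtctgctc
The window of Cers6 held 1 CCAAT box and 1 E-box, and that of Sgms1 held 1 GC box core, on the opposite strand. Ugcg and St3gal5 each held 2 GC box cores, St3gal5 also held 1 CCAAT box, and Arsa held 1 STAT core and 1 E-box. No motif was shared by all 5. Of 32851 promoters of the same length, 33.8% held the CCAAT box, 32.7% the GC box core, 12.4% the TATA motif, 7.02% the STAT core and 6.02% the E-box, so these matches are a description of the windows only.

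The paternal diets were then compared, with both sexes together and in each sex. No member passed after adjustment in any of these comparisons, with or without NL replicate 6. Across all probe sets, 0% passed in LL against NN offspring, 0.0135% in NL against NN offspring (0.0540% without NL replicate 6) and 0% in LN against NN offspring (0.0405% without NL replicate 6). The lowest adjusted p among the members without NL replicate 6 was 0.688 for LL, 0.378 for NL and 0.334 for LN against NN offspring, and 0.637 for NL against LN offspring. The 3 comparisons with NN offspring share the 7 NN arrays.

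The serine palmitoyltransferase subunits varied little with diet. The lowest, median and highest log2 level of Sptlc1 was 5.88, 6.24 and 6.45 in LL, 5.71, 6.02 and 6.46 in NL without NL replicate 6, 6.02, 6.28 and 6.58 in LN, and 6.14, 6.29 and 6.52 in NN offspring. All groups overlapped. NL offspring were at -0.23 relative to NN offspring without NL replicate 6 (interval -0.47 to 0.01, unadjusted p = 0.0608) and at -0.25 with it (unadjusted p = 0.0484). In NL males Sptlc1 was 6.01, 5.71, 5.95 (NL replicate 6) and 6.46, against 6.41, 6.29, 6.38 and 6.29 in NN males, so that 1 NL male was above all NN males. Sptlc2 ranged from 8.46 to 9.08 over 29 arrays and differed from NN offspring by -0.01 in LL (interval -0.20 to 0.17), 0.07 in NL (interval -0.13 to 0.28) and 0.06 in LN offspring (interval -0.14 to 0.26). With NL replicate 6, which read 6.26, the NL difference was -0.29.

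Degs1, the desaturase of the last step to ceramide, was the steadiest member, with a spread within group and sex of 0.14 (SD, log2) without NL replicate 6. In NL males Degs1 was at 9.77, 10.01, 7.02 (NL replicate 6) and 10.00, in LN males at 10.02, 10.07, 10.07 and 10.00, and in NN males at 10.11, 10.24, 10.21 and 10.33. All NL and all LN males lay below all NN males. Without NL replicate 6 a separation with NL males lower was found for 3.94% of all probe sets, and one with LN males lower for 2.78%. The difference was -0.30 for NL males (SE 0.13, unadjusted p = 0.0261, adjusted p = 0.375) and -0.18 for LN males (unadjusted p = 0.127). With NL replicate 6 the NL male difference was -1.02 (unadjusted p = 0.00825, adjusted p = 0.0890). In females Degs1 was at 10.12, 9.92 and 10.20 in NL and 10.11, 10.08 and 9.99 in NN offspring, with no separation.

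Among the ceramide synthases, Cers2, the enzyme of very long chain ceramides, had the lowest p in LN offspring. Its lowest, median and highest log2 level was 9.92, 10.27 and 10.40 in LN, against 9.50, 9.86 and 10.18 in NN offspring. In LN females Cers2 was 9.99, 10.27 and 10.04, against 9.85, 9.91 and 9.50 in NN females, without overlap, as for 6.46% of all probe sets in that direction. In LN males it was 9.92, 10.30, 10.32 and 10.40, against 9.99, 10.18, 9.86 and 9.67 in NN males, which overlapped. Over both sexes the difference was 0.32 (interval 0.06 to 0.59, unadjusted p = 0.0196, adjusted p = 0.334 without NL replicate 6, and unadjusted p = 0.282 with it). Smpd1 was the other member with an unadjusted p under 0.05 in LN offspring, and 11.6% of all probe sets reached that level.

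Cers4 separated LL from NN females before adjustment only. Its log2 level was 6.68, 6.63, 7.09, 6.57 and 6.74 in LL females, against 6.29, 6.37 and 6.38 in NN females. Every LL female lay above every NN female, as for 3.13% of all probe sets in that direction. The difference was 0.39 (SE 0.14, unadjusted p = 0.0103, adjusted p = 0.320 without NL replicate 6), or 0.41 without LL replicate 1 as well (adjusted p = 0.245), and 11.3% of all probe sets had an unadjusted p under 0.05. In LL males Cers4 was 6.46, 6.64, 6.26 and 6.73, against 6.47, 6.45, 6.74 and 6.65 in NN males, intermixed, and the difference between the sexes in this comparison was -0.45 (unadjusted p = 0.0325, adjusted p = 0.750). NL females also lay above NN females, at 6.62, 6.51 and 6.39 (0.16, unadjusted p = 0.324), which 9.72% of all probe sets did.

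Cers4 and Cers5 were the members with the lowest p for the seminal plasma diet. Taking offspring of LPD seminal plasma (LL and NL) against those of NPD seminal plasma (LN and NN) without NL replicate 6, Cers4 differed by 0.19 (SE 0.08, unadjusted p = 0.0190, adjusted p = 0.554) and Cers5 by -0.28 (SE 0.10, unadjusted p = 0.00837, adjusted p = 0.524), and 8.55% of all probe sets had an unadjusted p under 0.05. The lowest, median and highest level of Cers5 was 4.52, 5.31 and 5.58 in LL, 4.85, 5.21 and 5.46 in NL, 5.25, 5.48 and 5.91 in LN, and 5.24, 5.34 and 5.48 in NN offspring. The groups overlapped, and NN offspring were the least spread (SD 0.10). NL against LN offspring gave -0.38 for Cers5 (SE 0.15, unadjusted p = 0.0169, adjusted p = 0.637), and 6.89% of all probe sets reached that level. The sperm diet gave no member an unadjusted p under 0.05, against 6.52% of all probe sets. Cers6, the member with the sex difference, differed from NN offspring by -0.08 in LL, 0.01 in NL and -0.18 in LN offspring, with intervals that reached from -0.87 to 0.74. These fits had no sex term, and the share of females differed between the groups, so the values for Cers6 also carry sex. Within each sex its mean was 8.09 in LL and 8.32 in NN females, and 7.09 in LL and 7.29 in NN males.

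Of the sphingomyelin and ceramidase genes, Sgms1 was the one with an unadjusted p under 0.05 in NL males. Its values, given above, were lower in the NL males than in 3 of the 4 NN males. The difference was -0.58 without NL replicate 6 (SE 0.26, unadjusted p = 0.0335, adjusted p = 0.396) and -0.96 with it (adjusted p = 0.0843), and 11.5% and 32.8% of all probe sets had an unadjusted p under 0.05. Smpd1 in NL females was 7.46, 7.76 and 7.52, against 7.41, 7.04 and 7.43 in NN females (0.28, unadjusted p = 0.121). The NL females lay above without overlap, as for 9.72% of all probe sets. Over both sexes Smpd1 was at 0.01 in LL, 0.23 in NL and 0.25 in LN relative to NN offspring, and the sperm by seminal plasma interaction was -0.47 (SE 0.17, unadjusted p = 0.0106, adjusted p = 0.247 without NL replicate 6), with 12.6% of all probe sets at that level. The group means of Smpd1 were 7.42 ± 0.20 in LL (SD, n = 9), 7.64 ± 0.15 in NL (n = 6), 7.66 ± 0.31 in LN (n = 7) and 7.41 ± 0.22 in NN offspring (n = 7). The hybridisation controls also tended to be lower in NL and LN than in LL and NN offspring, as given below. Asah1 differed from NN offspring by -0.10 in LL, -0.12 in NL and -0.03 in LN offspring without NL replicate 6, while the NL difference was -0.65 with it.

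**Figure D3:**
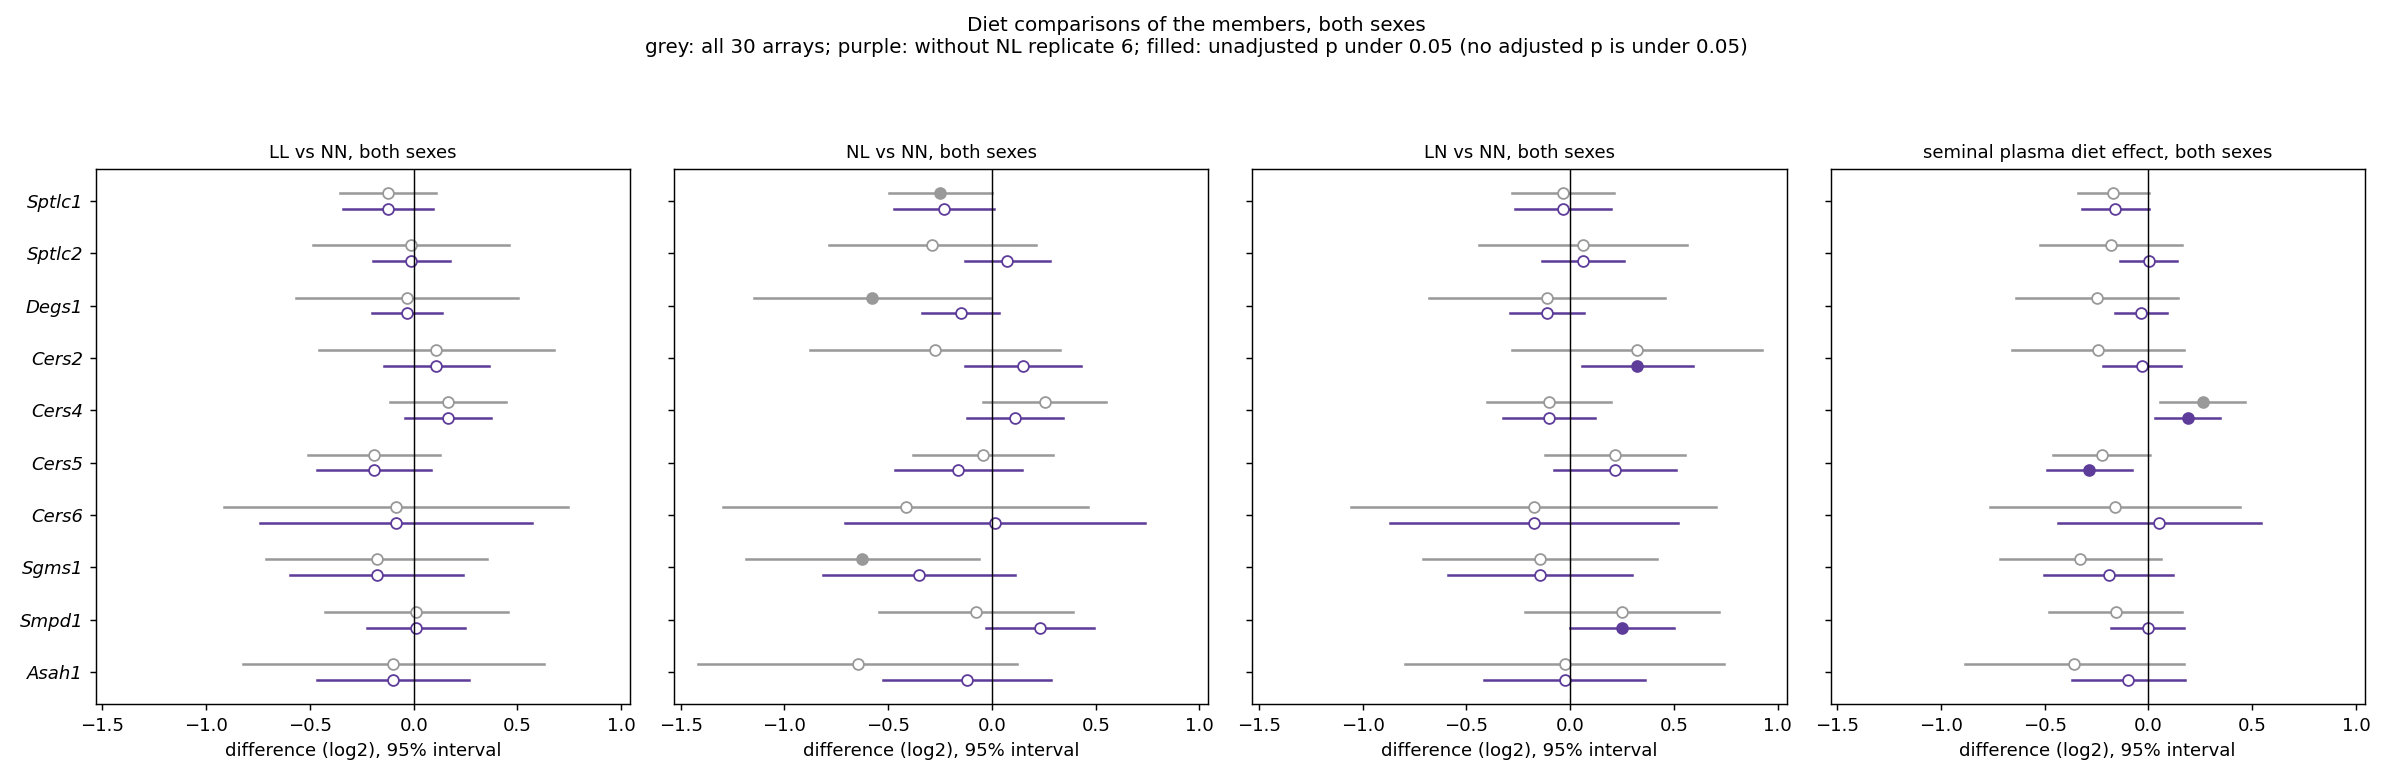
Log2 difference from NN offspring for each of the 10 genes in LL, NL and LN offspring, and of LPD from NPD seminal plasma, both sexes together, with 95% intervals, for all 30 arrays (grey) and without NL replicate 6 (purple), with filled points for an unadjusted p under 0.05. In NL offspring the differences of 8 genes lie nearer to 0 without NL replicate 6, as for Degs1 (-0.58 with all arrays and -0.15 without) and Asah1 (-0.65 and -0.12), and those of Cers5 (-0.04 and -0.16) and Smpd1 (-0.08 and 0.23) lie farther from it.

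The values in NL offspring turned on NL replicate 6. The median difference over the 10 members was -0.28 in NL against NN offspring with all arrays and -0.05 without NL replicate 6, against 0.04 and 0.01 for all probe sets. With it, 3 members had an unadjusted p under 0.05, all lower (Sptlc1, Degs1 and Sgms1), where 23.8% of all probe sets did. Without it none did, where 14.1% of all probe sets did. In NL males the member median was -0.54 with it and -0.01 without it. In LL and LN offspring, which do not include this array, the member medians were -0.06 and -0.03.

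**Figure D4:**
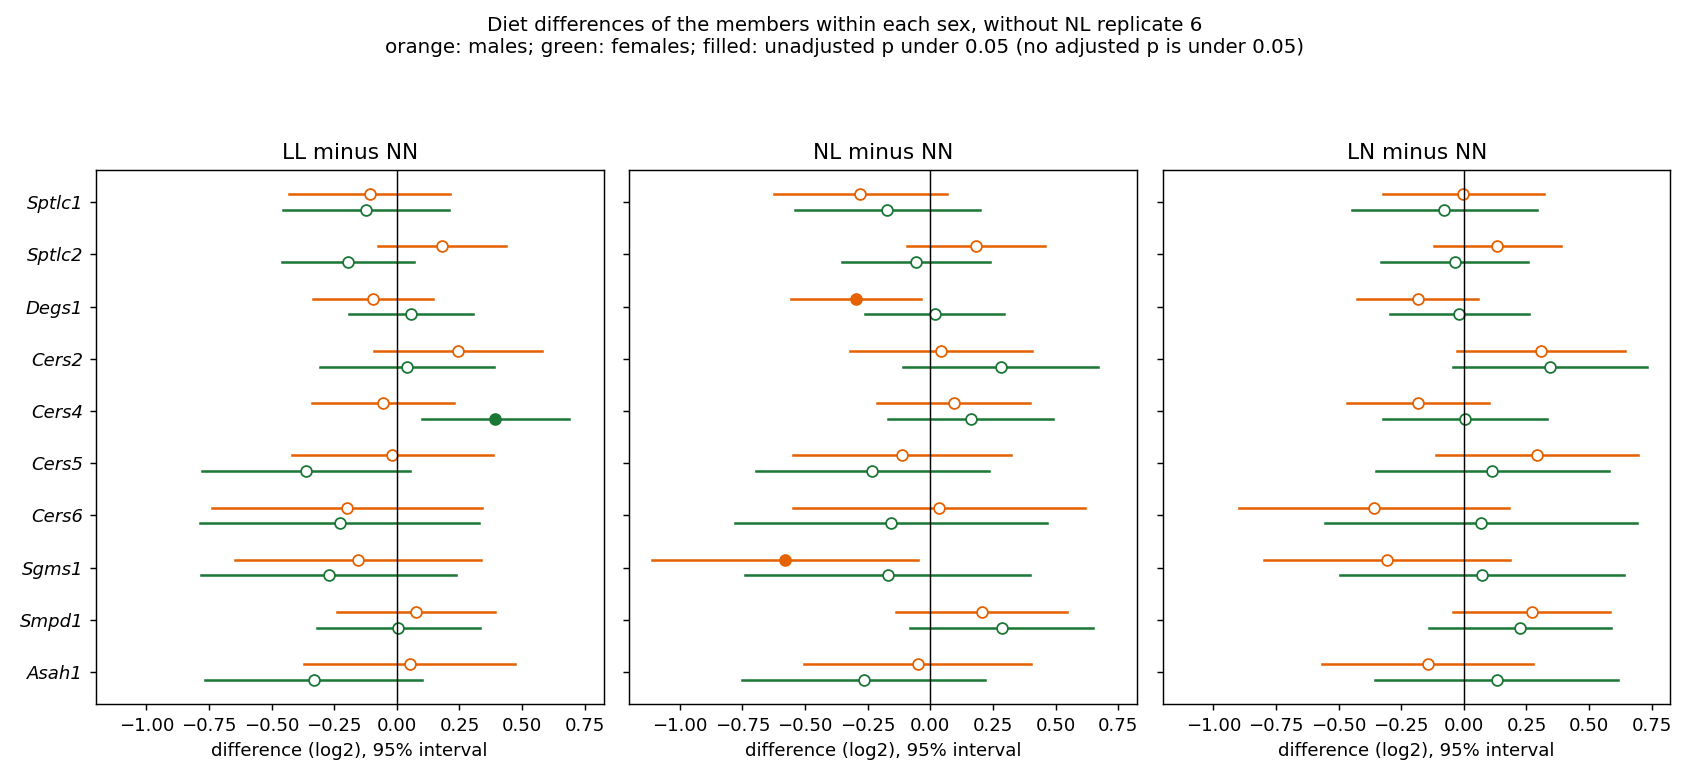
Log2 difference from NN offspring of the same sex for each gene, males (orange) above females (green), with 95% intervals and without NL replicate 6. Cers4 in LL females (0.39) and Degs1 (-0.30) and Sgms1 (-0.58) in NL males have intervals that leave out 0 before adjustment.

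None of the other 50 sphingolipid genes passed after adjustment in a diet comparison. Ormdl3, an inhibitor of serine palmitoyltransferase, had the lowest p for the sperm diet: its lowest, median and highest level was 6.55, 6.75 and 6.89 in LL, 6.27, 6.34 and 6.78 in NL, 6.46, 6.76 and 6.94 in LN, and 6.03, 6.43 and 6.75 in NN offspring. LL and LN offspring together were 0.30 above NL and NN offspring without NL replicate 6 (SE 0.07, unadjusted p = 0.00035, adjusted p = 0.325), and 0.27 above with it (adjusted p = 0.844). The ranges overlapped. Sgpl1, the lyase that ends sphingolipid breakdown, was at 7.44, 7.63 and 7.79 in LN, against 7.19, 7.31 and 7.52 in NN offspring (0.28, unadjusted p = 0.00221, adjusted p = 0.211). Sgms2, the plasma membrane sphingomyelin synthase, was lowest in NL males, at 8.10 to 8.57 without NL replicate 6, against 8.55 to 9.10 in NN males (-0.57, unadjusted p = 0.00641, adjusted p = 0.275), the same direction as Sgms1.

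Within group and sex the members showed little common variation. Over the 29 arrays other than NL replicate 6, with the mean of each group and sex removed, the 45 pairs of members had a median Pearson r of 0.14, from -0.44 (Cers2 with Cers6) to 0.48 (Sptlc1 with Asah1), and 16 pairs were negative. Cers6 had the widest spread (SD 0.41), followed by Sgms1 (0.37) and Asah1 (0.31). Among 19572 probe sets with a single symbol, those most like Cers6 in this measure were Hnf4a (r = 0.79) and Slc39a14 (0.78), those most like Sgms1 were Tpd52l2 (0.79) and Klb (0.78), and that most like Asah1 was Cyp51 (0.87). Every member had a nearest probe set at a similar level, from 0.74 (Cers5) to 0.87 (Cers2). The residuals of Sptlc2 and Cers2 ran against the signal of the hybridisation controls (r = -0.52 and -0.50). For Smpd1 r was -0.33. For the genes called between the sexes r was -0.42 for Asah1, -0.28 for Sgms1 and -0.18 for Cers6, and over all 10 members it lay between -0.52 and -0.02. The controls themselves read 10.57 to 10.94 in NN and 10.48 to 10.95 in LL offspring. They tended to be lower in NL (10.33 to 10.71 without NL replicate 6) and LN offspring (10.14 to 10.71). The part of array signal in the diet differences was not tested. These points share arrays and their normalization, and the values are descriptions without a test.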

How the data were processed

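The values used were the deposited log2 signals of 29129 probe sets on 30 Clariom S mouse arrays, made by the authors with Partek software. Its version, the background correction, the summarisation and the normalization are not given in the sources used here, so the values were taken as deposited. Control probe sets (6923) were left out, and 22206 were tested, of which 19572 carried a single gene symbol. Groups and sex came from the labels. In R 4.3.3, limma 3.58.1 (lmFit) took 4 diet groups, or 8 groups of diet and sex, into 1 model, followed by eBayes and Benjamini-Hochberg adjustment over all probe sets at 0.05, two-sided. The fit of 4 diet groups had no sex term. Each fit was repeated without NL replicate 6. The scripts were tested on simulated data. The genes, lists and tests were chosen with earlier results of these data known. Of the other pathway genes, up to 4 per comparison with the lowest p were eligible to be named. Log2 differences are on the array scale, levels of different probe sets were not compared, and the number of arrays limits the precision. Litter could not be modelled.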

Additional observations from a re-analysis of the deposited data

Results flagged for a closer look

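An array far from the rest of its group was found in 12 of 90 groups of values (10 genes by diet group, with the sexes together or apart, 4 to 9 arrays each). Chance gives about 1 in 20 for a single set of values. These sets share arrays, and each sex is part of its diet group, so the count cannot be judged against that rate. Of these, 10 were NL replicate 6, which read 6.26 for Sptlc2 (other NL arrays 8.65 to 9.06), 7.02 for Degs1 (9.77 to 10.20), 4.49 for Sgms1 (5.93 to 6.92) and 5.48 for Smpd1 (7.46 to 7.86), each apart both in NL offspring and in NL males, and 7.03 for Cers2 (9.38 to 10.36) and 4.19 for Asah1 (7.45 to 8.27) in NL offspring. The other 2 were Degs1 in LL replicate 4, a female, at 10.53 (other LL arrays 9.88 to 10.14), and Sgms1 in NN replicate 7, a male, at 6.00 (other NN arrays 6.63 to 7.04).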

How the results depend on the processing

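With all arrays, Cers6 was lower in males in every setting. Without NL replicate 6, Cers6, Sgms1 and Asah1 each passed in 29 of 29 further omissions of 1 array (highest adjusted p 1.51e-05, 0.0424 and 0.0426) and in 4 of 4 settings (quantile normalization, median centring, array weights, the methods' one-way ANOVA), alternatives chosen after seeing the data. With all arrays, the count of members past the threshold between the sexes was 1 with quantile normalization, with median centring and with the one-way ANOVA, 1 to 3 with 1 array left out, and 0 within each of the LL, NL, LN and NN offspring (member median -0.67 within NL). Sgms1 was the member lost, without LL replicates 2, 3, 7 or 8, NL replicates 1 or 3, LN replicates 1, 2, 4, 6 or 7, or NN replicates 1, 3, 5 or 7. Cers2 moved from -0.03 to 0.19 (higher in males) with array weights.

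Replicate numbers do not pair the samples (median r of 39 same-numbered pairs 0.01) and nearly coincide with sex. With the replicate block the count was 0, Sgms1 was at 0.12 and Asah1 at 0.16, and the member median was 0.23 for LL against NN males and 0.32 for the sex difference in that comparison.

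For NL against NN offspring the member median was -0.013 with array weights, -0.054 without NL replicate 6, with or without LL replicate 1, and -0.37 to -0.054 with 1 array left out. For NL against LN offspring these were -0.031, -0.067 and -0.42 to -0.067, and the interaction median was -0.026 with weights. In NL males they were -0.14, -0.0074 and -0.75 to -0.0074. There 3 members passed without NL replicate 5 and 5 without NL replicate 7 (0 to 5 with 1 array left out). Both fits kept NL replicate 6, and the share of all probe sets that passed in them was not counted. With all arrays 32.8% of all probe sets had an unadjusted p under 0.05 in NL males. These counts are therefore not a result about the members. The sex difference in NL against NN offspring had a median of -0.13, -0.073 and -0.84 to -0.073. The causes were not tested. Of 6596 recomputed values, 6523 were counted as unchanged, 27 became weaker, 43 stronger and 3 reversed. Unchanged values kept their side of the threshold but could change sign where no p was under 0.05. Smpd1 in NL against NN offspring did so, with -0.17 to 0.23 when 1 array was left out. All 10 members passed the filter on dim probe sets.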
